A study of Fragaria vesca with 9 samples.

Results

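In axillary buds of woodland strawberry, *Fragaria vesca*, 100 genes were set apart by higher values in the FT3OE libraries than in the H4 and RdV libraries, which stood close to each other. They were taken from 34006 deposited genes, of which 16968 averaged at least 1 CPM (a gene's expected counts scaled to a library sum of 1000000). The rule works on the mean of log2(CPM + 0.5) in each genotype. It keeps genes whose RdV and H4 means differ by less than 0.3, whose 3 FT3OE values all lie above the 6 other values, and whose CPM average at least 1 over the 9 libraries. It sets aside the identifier FvH4_3g09870 and the 41 identifiers of a stretch of linkage group 4. Of 18587 genes that passed a low-count filter, here called the tested genes, 8.31% had their 3 FT3OE values above the 6 others. In all, 1047 deposited genes met every condition, and the 100 members are those with the largest margin, which is the FT3OE mean minus the higher of the H4 and RdV means. The members were thus chosen on the FT3OE values themselves, so their differences from H4 and RdV are given as a description and support nothing.

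FT proteins belong to a small family of mobile signals, made in leaves in many plants and carried to growing points, where they act with transcription factors of the bZIP type to switch meristems towards flowering or to alter their growth. An axillary bud of strawberry sits at the base of a leaf. It may grow into a runner, a long creeping shoot that gives daughter plants, or into a branch crown, a compact side shoot able to bear flowers. The series addresses how this choice is made and how buds grow out into branch crowns, and the overexpression line asks which genes in the bud differ when an FT gene is strongly expressed.

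All buds were undifferentiated, came from node 4 of untreated plants at the 4-leaf stage, and grew under days of 16 h. H4 is the Hawaii-4 accession. FT3OE is a line in the Hawaii-4 ecotype that the titles name FT3, taken here to overexpress FT3; its promoter, its number of transformation events and its transgene position are not stated in the labels. RdV is a different ecotype, with 3 libraries like the others. The titles carry the code US4 for H4 and UB4 for FT3OE and RdV, the labels define neither, and a difference marked by the code cannot be told apart from genotype in comparisons with H4. The labels do not say whether replicates came from separate plants, so any spread between them may be technical.

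Library totals ran from 23110933 to 44916872 expected counts, and FT3OE replicates 2 and 3 were the deepest. The files pair no identifier with a gene name, product or sequence, and 0 of the 34006 identifiers matched the gene table used here. The members are therefore given by identifier without roles, and neither the labelled tissue nor any pathway could be checked against named genes. The identifier set aside by the rule, FvH4_3g09870, had 286, 260 and 309 CPM in FT3OE replicates 1, 2 and 3. It had 3, 1 and 0 counts in H4 and 1, 0 and 0 in RdV. FT3OE thus held this transcript at a level 5920 times that of H4 by summed, depth-scaled counts (95% exact counting interval 2310 to 21700), a ratio that rests on 4 H4 counts.

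Most members differed modestly. The margin ran from 3.78 down to 0.49 with a median of 0.61, which is 1.52-fold. A margin of at least 2 was reached by 3 members, a further 10 lay from 1 to under 2, and 18 from 0.75 to under 1. The largest class, 63 members, lay from 0.5 to under 0.75, and 6 members were under 0.5. The list thus had a short head of strongly raised transcripts and a long, even tail.

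**Figure D1:**
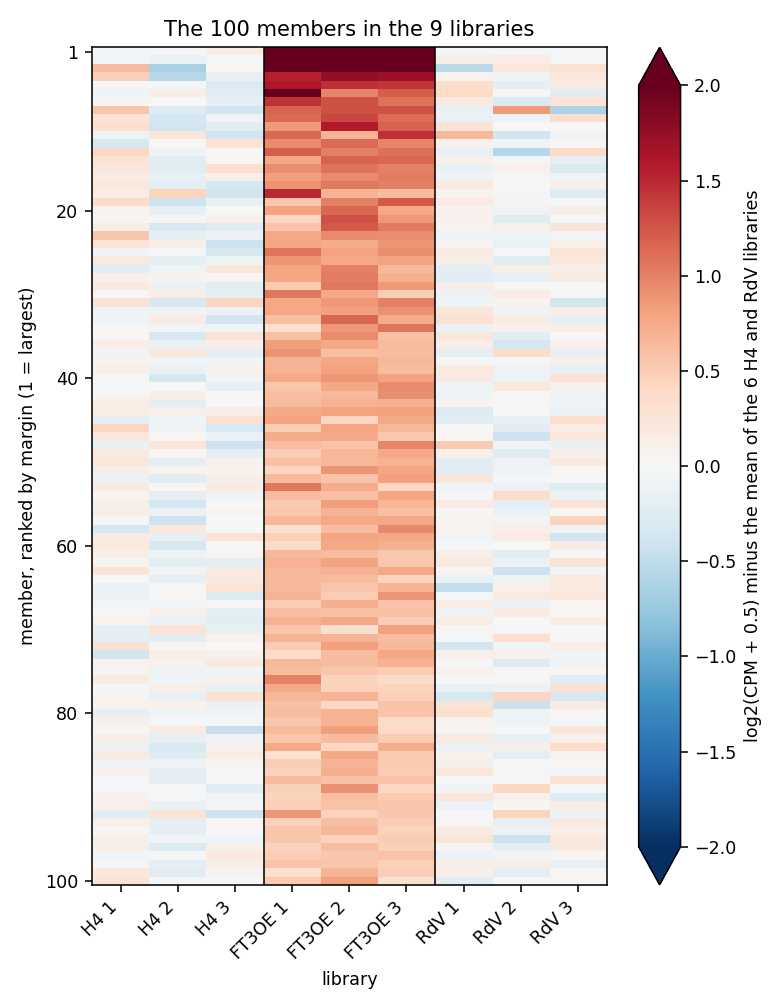
Each row is 1 of the 100 members, ranked by margin, and each column 1 of the 9 libraries. Colour gives log2(CPM + 0.5) minus the mean of the 6 H4 and RdV libraries, cut at −2 and 2; the 3 FT3OE columns are red in all rows by the rule, deepest in the first rows, while the other 6 columns stay pale with scattered single libraries of either colour.

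The head of the list was led by a pair of transcripts that were nearly unread outside FT3OE. FvH4_5g13500 had 188, 281 and 293 counts in FT3OE replicates 1, 2 and 3, or 7.10, 6.38 and 6.52 CPM. Outside FT3OE it had 2 counts, both in H4 replicate 3, and 0 in the 3 RdV libraries. The 3 FT3OE values were close together and the other libraries lay at or next to the floor. By summed counts scaled for depth the ratio of FT3OE to H4 was 274 (95% exact counting interval 75.6 to 2270), and without H4 replicate 3 it was at least 118, taking 3 counts over the whole group as the floor. Against RdV it was at least 186-fold higher on the same floor. Such intervals and floors cover counting error only.

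FvH4_3g02010 had 158, 256 and 212 counts in FT3OE, or 5.96, 5.81 and 4.72 CPM. It had 1, 0 and 1 counts in H4 and 3, 3 and 1 in RdV. The ratio of summed counts was 225 against H4 (95% exact counting interval 62.0 to 1860) and 65.3 against RdV (31.5 to 163). In RdV it was read in every library, though at 0.111 CPM or less. On the scale per transcript length, FvH4_3g02010 stood above FvH4_5g13500 in FT3OE, at 40.6 ± 3.8 against 7.01 ± 0.39 TPM (the authors' values scaled for length, SD, n = 3 each).

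**Figure D2:**
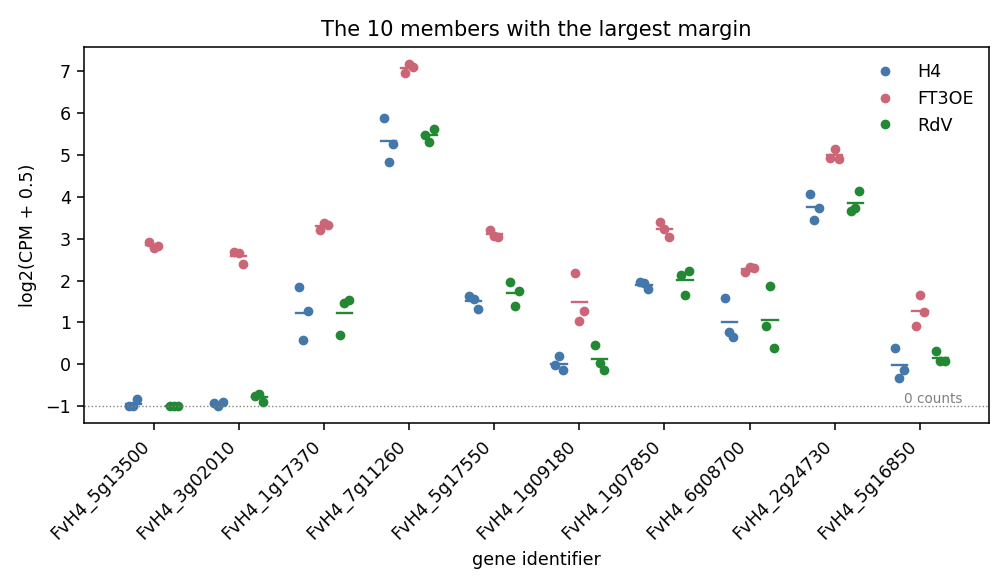
log2(CPM + 0.5) of the 10 members with the largest margin, with 1 point per library and a bar at the mean of each genotype; the dotted line marks 0 counts. FvH4_5g13500 and FvH4_3g02010 lie near that line in H4 and RdV, whereas FvH4_7g11260 and FvH4_2g24730 are well read in all 9 libraries.

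FvH4_1g17370 came next, with 8.72, 9.92 and 9.48 CPM in FT3OE. It had 3.12, 0.995 and 1.90 CPM in H4 and 1.11, 2.26 and 2.39 in RdV. Its FT3OE libraries agreed better than its H4 libraries, which were uneven, with replicate 1 highest and replicate 2 lowest. The fitted log2 change was 2.11 ± 0.34 (SE) against H4 and 2.28 ± 0.35 against RdV, from a model of all 9 libraries with trimmed-mean (TMM) scaling.

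FvH4_7g11260 combined a large margin with a high level. It reached 123, 142 and 136 CPM in FT3OE. In H4 it stood at 58.2, 28.0 and 37.5 CPM and in RdV at 43.8, 39.2 and 48.8. The lowest FT3OE value lay 1.08 above the highest other value in log2(CPM + 0.5), and that other value again came from H4 replicate 1. Its margin of 1.60 was the largest among the 35 members that averaged at least 10 CPM, whose median margin was 0.59. The fitted log2 change was 1.60 ± 0.20 (SE) against H4 and 1.59 ± 0.20 against RdV.

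The next members spanned a range of levels. FvH4_5g17550 had 8.72, 7.90 and 7.70 CPM in FT3OE, 2.59, 2.47 and 2.00 in H4 and 3.38, 2.15 and 2.87 in RdV. FvH4_1g07850 had 10.1, 8.83 and 7.68 in FT3OE, 3.42, 3.33 and 2.95 in H4 and 3.87, 2.66 and 4.18 in RdV. In both genes FT3OE was separated from the highest other library by more than any spread within a group. RdV was the most uneven genotype in log2(CPM + 0.5), with an SD of 0.279 in FvH4_5g17550 and 0.301 in FvH4_1g07850. FvH4_2g24730 had 29.9, 34.5 and 29.5 CPM in FT3OE, 16.3, 10.4 and 12.8 in H4 and 12.2, 12.7 and 17.2 in RdV. The fitted log2 change was 1.15 ± 0.16 (SE) against H4 and 1.14 ± 0.16 against RdV.

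In 3 other members of the first 10, single libraries carried much of the spread. FvH4_1g09180 had 4.00 CPM in FT3OE replicate 1 but 1.57 and 1.91 in replicates 2 and 3, against 0.407 to 0.649 in H4 and 0.410 to 0.885 in RdV. FvH4_5g16850 had 1.40, 2.66 and 1.87 in FT3OE, 0.821, 0.303 and 0.407 in H4 and 0.754, 0.555 and 0.560 in RdV. FvH4_6g08700 was even in FT3OE, at 4.08, 4.47 and 4.43, but uneven elsewhere, with 1.09 to 2.50 in H4 and 1.38, 3.18 and 0.821 in RdV. The FT3OE values of FvH4_6g08700 all lay above RdV replicate 2, its nearest other library, and without that library its fitted log2 change against RdV was 1.97 in place of 1.25 ± 0.43 (SE). The edgeR quasi-likelihood test, at an adjusted p under 0.05, called it higher in FT3OE than in RdV without that library and not with it. Against H4 its log2 change of 1.33 ± 0.44 (SE) was called with all libraries, and that call was lost without H4 replicate 2 or 3 or any 1 FT3OE replicate, where the change was 1.11 to 1.37.

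The members were mostly weakly expressed. Of the list, 50 members averaged under 5 CPM, against 16.9% of the genes with at least 1 CPM, and 35 members averaged at least 10 CPM, against 72.5%. The median member stood at 5.03 CPM and the median gene at 25.4. Members under 5 CPM had a median margin of 0.70. The 947 genes that met the conditions with smaller margins were well read, with a median of 30.7 CPM and 6.76% of them under 5 CPM. Low levels were also common in the 100 largest margins of the lists made by turning the rule round, with 27 genes under 5 CPM for lower in FT3OE, 58 for higher in RdV and 35 for lower in RdV. Counts behind the members were correspondingly small: 29 members had fewer than 100 counts in an FT3OE library and 24 had fewer than 30 in at least 1 of the other 6.

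A few abundant members carried a large part of the summed member CPM. FvH4_7g08560 had 260, 290 and 274 CPM in FT3OE, 194, 166 and 186 in H4 and 183, 165 and 185 in RdV. FvH4_2g17810 had 245, 261 and 259 in FT3OE, 188, 160 and 171 in H4 and 163, 182 and 195 in RdV. In these genes H4 and RdV overlapped and FT3OE lay above both, as the rule requires. The difference was small, with fitted log2 changes against H4 of 0.50 ± 0.06 (SE) and 0.47 ± 0.08. FvH4_3g08830 had 178, 175 and 200 CPM in FT3OE, 120, 100 and 110 in H4 and 112, 149 and 107 in RdV, where replicate 2 came closest to FT3OE.

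The 5 members above a mean of 100 CPM, which also include FvH4_1g07300 and FvH4_5g22940 (named for completeness after their values were seen), made up 44.2% of the summed member CPM in FT3OE, 47.1% in H4 and 47.8% in RdV. Summed over all 100 members, FT3OE had 2382, 2529 and 2443 CPM in replicates 1, 2 and 3. The sums were 1580, 1345 and 1463 in H4 and 1518, 1463 and 1568 in RdV. In these sums H4 and RdV overlapped and FT3OE stood above both, the order for which the rule chose every member. In TPM the sums were 3030, 3121 and 3102 in H4, 4344, 4376 and 4069 in RdV and 5976, 5581 and 5979 in FT3OE. On that scale RdV stood above H4 without overlap. FvH4_6g13710 alone averaged 1485 TPM in H4 and 2513 TPM in RdV.

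Per transcript length the order of the members was different. The highest in FT3OE was FvH4_6g13710, with 3276, 2672 and 3183 TPM, whereas the 3 H4 libraries had 1299, 1662 and 1494. The RdV libraries had 2622, 2648 and 2268 TPM. On this scale RdV lay near FT3OE. In CPM the same gene had 29.9, 22.3 and 23.4 in FT3OE, 13.6, 19.6 and 11.9 in H4 and 16.1, 22.0 and 15.0 in RdV, and the FT3OE and RdV libraries nearly met. It had 791, 982 and 1050 counts in FT3OE, so its high TPM go with a very small effective length. Read from counts over TPM, as a median over the 9 libraries, that length was 0.00703 of that of the median tested gene. The length differed between libraries: H4 replicate 3 had fewer CPM than H4 replicate 1 but more TPM. FvH4_6g35582 had 152, 213 and 160 TPM in FT3OE, 107, 98.8 and 102 in H4 and 114, 146 and 121 in RdV. Of the 100 members, 96 kept all 3 FT3OE values above the 6 others in TPM. The rule chose the members for this separation in CPM of the same libraries. No share over all genes is given in TPM, so nothing is read from the count. The exceptions were FvH4_5g15510, FvH4_6g12900, FvH4_2g09360 and FvH4_4g07770, and in each the highest other value came from an RdV library. These 4 were picked out after their values were seen.

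Members differed widely in how clear the separation was. The gap between the lowest FT3OE value and the highest other value, in log2(CPM + 0.5), had a median of 0.31, and it ran from 0.015 in FvH4_5g15510 to 3.60 in FvH4_5g13500. It was at least 0.5 in 22 members and under 0.1 in 10. FvH4_5g15510, singled out after its values were seen, had 3.02 CPM in FT3OE replicate 2 and 2.98 in RdV replicate 1. It met the rule by a narrow gap although its margin was 1.02, at rank 11.

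The FT3OE libraries agreed closely in some members and not in others. The most even member was FvH4_6g46820, with 13.5, 13.1 and 13.2 CPM in FT3OE, 8.54, 9.17 and 7.43 in H4 and 8.03, 9.69 and 8.81 in RdV. FvH4_6g32620 had 49.2, 50.7 and 51.4 CPM in FT3OE, 32.2, 31.0 and 31.8 in H4 and 24.2, 28.5 and 26.2 in RdV. FvH4_1g09110 had 49.4, 48.6 and 50.7 in FT3OE, 32.8, 33.4 and 35.7 in H4 and 31.0, 26.0 and 29.8 in RdV. In FvH4_6g32620 and FvH4_1g09110 all 3 genotypes formed separate groups, with RdV below H4. These are the 2 members that the edgeR quasi-likelihood test called lower in RdV than in H4, at an adjusted p under 0.05, as it did 23.6% of all tested genes.

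At the other extreme, FvH4_4g32180 had 8.98 CPM in FT3OE replicate 1 and 4.86 and 4.65 in replicates 2 and 3, against 2.04 to 4.02 in H4 and 2.28 to 2.98 in RdV. Its fitted log2 change against H4 was 0.90 ± 0.30 (SE), which the test called, and 0.53 without FT3OE replicate 1, which it did not. The call was also lost without H4 replicate 3, where the change was 0.67, and without H4 replicate 1 or RdV replicate 3, where it was 0.92 and 0.90. Against RdV its change of 1.17 ± 0.30 (SE) was called too. That call was lost without FT3OE replicate 1 or RdV replicate 3, where the change was 0.81 and 1.07. FvH4_6g28050 had 1.55, 3.16 and 2.27 CPM in FT3OE, 1.05, 1.04 and 1.12 in H4 and 1.11, 0.777 and 1.01 in RdV, with replicate 2 highest. Over the members, the median SD of log2(CPM + 0.5) was 0.12 in FT3OE, 0.17 in H4 and 0.17 in RdV. Over all tested genes it was 0.09, 0.10 and 0.13, so the members varied more within each genotype than the typical gene. The comparison was not matched for expression level, and 50 members averaged under 5 CPM.

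Within H4 the members tended to be highest in replicate 1. That library held the highest H4 value in 55 members, against 37.5% of tested genes. Replicate 1 was also the nearest of the 6 other libraries to FT3OE in 27 members, although it was the highest of those 6 in 14.3% of tested genes. Within RdV, replicate 3 was highest in 40 members, against 28.5% of tested genes. Within FT3OE, replicate 2 was highest in 48 members and in 40.9% of tested genes, and replicate 1 was lowest in 46 and in 36.8%. These shares are given as a description; their part in the membership was not tested.

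The edgeR test used TMM scaling and Benjamini-Hochberg adjustment over the 18587 genes. All 100 members passed the low-count filter. The test called 87 of the 100 higher in FT3OE than in H4, where 16.7% of all tested genes were called higher. Against RdV it also called 87 higher, where 11.1% of tested genes were. The rule used these contrasts, and nothing is read from the counts. Both calls were met by 80 members and by 2.25% of tested genes, and 6 members were called in neither comparison. Of the 20 members not called in both, 18 averaged under 5 CPM, whereas 34 of the 35 members at 10 CPM or more were called in both. No share of all tested genes by level is given beside these counts, and nothing is read from them either.

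Between RdV and H4, 2 members were called and 48.1% of tested genes were, a contrast that the rule bounds directly. The RdV mean minus the H4 mean ran from −0.27 to 0.29 with a median of 0.04, and RdV was above H4 in 63 members. Under TMM scaling the median fitted log2 change of RdV against H4 was −0.02, so this slight lean depended on the scaling. Under library totals, which the rule uses, that median over all tested genes was 0.076, so the lean was not particular to the members. The median fitted log2 change of the members was 0.67 for FT3OE against H4 and 0.76 for FT3OE against RdV, and that of all tested genes 0.013 and 0.008. Comparisons with H4 share the same 3 H4 libraries.

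**Figure D3:**
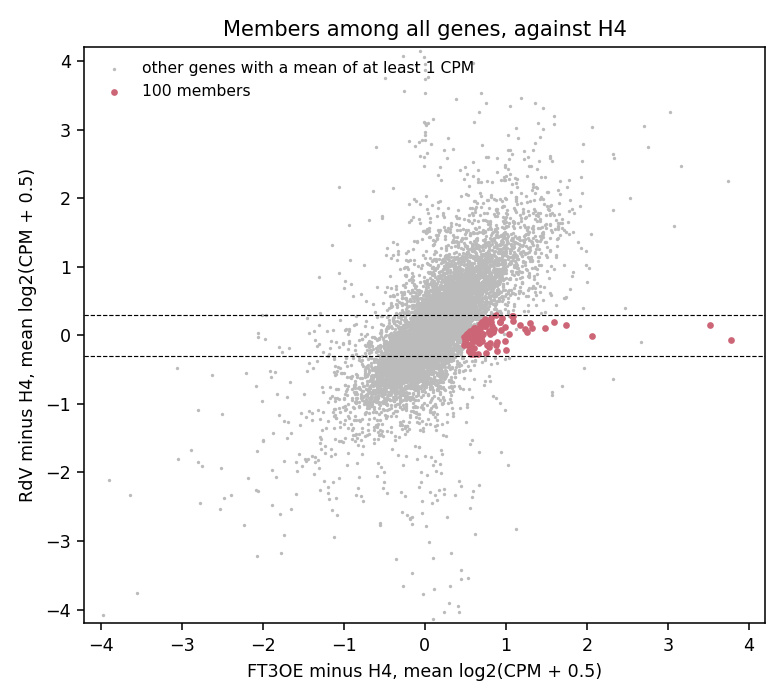
Each point is a gene that averaged at least 1 CPM, placed by its difference from H4 in mean log2(CPM + 0.5), FT3OE on the x axis and RdV on the y axis; both axes share the H4 libraries, and 36 genes lie outside the plot. The 100 members, in red, fill the band between the dashed lines at −0.3 and 0.3 to the right of the main cloud, and 2 of them lie beyond 3.

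The genes just inside and just outside the boundary of the list were alike in margin. The last members were FvH4_6g11980, FvH4_4g07770 and FvH4_2g31130, with margins of 0.497, 0.488 and 0.487. The next genes, FvH4_5g14970, FvH4_4g30650 and FvH4_1g06850, each had a margin of 0.486. The edgeR test called each of these next genes higher in FT3OE than in H4 and than in RdV. It called none of the last members in both comparisons. FvH4_2g31130 had 2.30, 2.95 and 1.91 CPM in FT3OE, 1.84, 1.38 and 1.43 in H4 and 1.18, 1.41 and 1.49 in RdV. FvH4_1g06850, outside the list, had 19.9 to 20.4 in FT3OE, 11.8 to 14.3 in H4 and 13.3 to 16.3 in RdV, with a wider gap than FvH4_2g31130. The end of the list is therefore a count of 100 and not a break in the margins.

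The same conditions were turned round for comparison. With FT3OE below both others, 360 genes met them, against 1047 with FT3OE above. With RdV apart and FT3OE within 0.3 of H4, 1246 genes were higher and 1594 lower in RdV. The 100th margin was 0.49 for genes higher in FT3OE and 0.38 for genes lower, against 1.10 and 1.05 for RdV. A margin of at least 1 was reached by 13 and 20 genes for FT3OE and by 114 and 112 for RdV. The excess of higher over lower genes in FT3OE depended on the scaling, since TMM-scaled CPM gave 692 higher and 619 lower genes. Library totals alone, which the rule uses, put the median change over every tested gene, FT3OE against H4, at 0.107 on the log2 scale, against 0.013 with TMM.

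**Figure D4:**
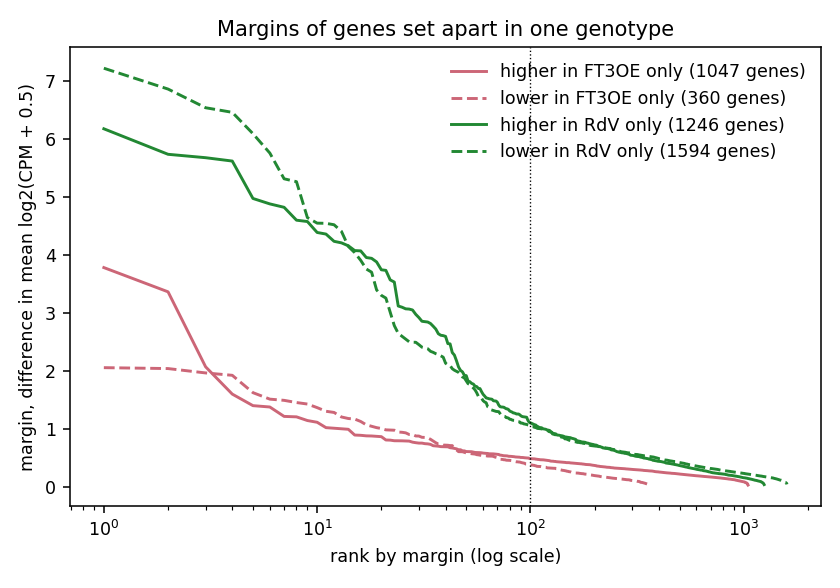
Margin in mean log2(CPM + 0.5) against rank, on a log axis, for the genes higher or lower in FT3OE and higher or lower in RdV; the dotted line marks rank 100. The FT3OE curves lie under the RdV curves at rank 10 (1.11 and 1.37 against 4.38 and 4.54) and at rank 100.

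Linkage groups were read from the identifiers, in which the digit ahead of the letter g numbers the group. The members lay on all 7 linkage groups, with 10, 14, 17, 14, 15, 20 and 10 on groups 1 to 7, which is 0.445% to 0.585% of the tested genes of each. They were spread, with 4 pairs that had at most 5 identifiers between them. The closest pair was FvH4_3g02010 and FvH4_3g02030, with 1 identifier between. FvH4_3g02030 had 11.4, 10.9 and 9.91 CPM in FT3OE, 6.80, 5.58 and 6.86 in H4 and 6.85, 4.74 and 6.57 in RdV, and the gene between them had a fitted log2 change of 0.12 against H4. The pair thus differed from H4 to very different extents, around a gene with little difference.

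In the pair FvH4_4g27360 and FvH4_4g27390, the first had 2.38, 1.86 and 1.45 CPM in FT3OE, 0.854, 1.04 and 0.713 in H4 and 0.787, 1.04 and 0.896 in RdV. The second had 3.17, 3.41 and 3.78 in FT3OE, 2.10, 1.21 and 2.38 in H4 and 1.51, 1.74 and 1.16 in RdV. The tested gene between them had a log2 change of 0.30 in FT3OE against H4. FvH4_6g06510, at 81.6, 78.6 and 75.1 CPM in FT3OE, 55.9, 48.0 and 53.4 in H4 and 56.5, 43.6 and 51.6 in RdV, lay close to FvH4_6g06540. FvH4_6g06540 was far lower, with 3.81, 5.40 and 6.37 in FT3OE, 3.32, 1.69 and 2.14 in H4 and 2.79, 2.55 and 2.35 in RdV. The tested genes between the last pair had log2 changes of −0.08 and −0.06. The remaining pair, FvH4_1g09110 and FvH4_1g09180, joined one of the steadiest members to the most variable, and the tested genes between them ran from −0.58 to −0.05.

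The members resembled the tested genes in effective length and in the form of their identifiers. Of 98 members with a length estimate, 23 fell in the longest 25% of tested genes, 27 in the shortest 25% and 48 above the median. Identifiers that do not end in 0 made up 7 of the 100 members and 10.7% of tested genes.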

How the data were processed

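Stranded mRNA libraries of axillary buds were read as 150 bp pairs, per the labels' protocols. The authors deposited expected counts per gene, which are estimates without normalization and 97.5% whole, and TPM, which are divided by effective gene length and scaled to a fixed sum. Per the submitters' processing notes the tools were STAR, RSEM and edgeR, with neither version nor role stated, and no genome build is given. Values of near-identical genes are uncertain, because reads may have been divided between them.

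The members were found on CPM of column sums. Expected counts were rounded, filtered with filterByExpr (18587 genes) and fitted over all 9 libraries with edgeR 4.0.16 in R 4.3.3 (TMM, glmQLFit, glmQLFTest), after a test on simulated data. Depth limits the weakest members: totals differed by a ratio of 1.94. Summed counts were compared as ratios with exact binomial intervals at 95% (scipy 1.17.1). Named genes are the 10 largest margins, the 5 highest TPM in FT3OE, the 3 smallest margins with the next 3 genes, the 3 largest and 3 smallest FT3OE SDs, members with at most 3 counts elsewhere, and close neighbours. Others are named as chosen after their values were seen, or by count. The members and lists were chosen with earlier results of these data known. Planned gene lists could not be used without names. Alternatives included RLE scaling, library totals, DESeq2 1.42.0 and limma 3.58.1 on log2 TPM.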

Additional observations from a re-analysis of the deposited data

How the results depend on the processing

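An adjusted p under 0.01 left 54 of the 87 members called against H4, and leaving out 1 library gave 67 to 90. Against RdV that range was 71 to 86. The count called between RdV and H4 was 2 to 6, with 6 without H4 replicate 2. With the replicate number as a block, edgeR called 81, 84 and 3 members in FT3OE against H4, FT3OE against RdV and RdV against H4. The share of all tested genes called is not given for these alternatives. The rule used or bounded each of these contrasts, so nothing is read from the counts of members called. Deviations from the genotype means correlated at −0.18 to 0.18 between same-numbered libraries and at −0.19 to 0.14 between differently numbered ones. With 3 libraries per genotype, these values cannot settle whether the numbers pair the libraries. The median log2 change of the members against H4 was 0.76 under library totals and 0.79 under limma on log2(TPM + 0.1). Against RdV it was 0.61 under limma on log2(TPM + 1) and 0.62 with a minimum mean of 1 TPM. For RdV against H4 it was 0.06 under library totals, and 0.08, 0.11 and 0.08 under limma with pseudocounts of 1 and 0.1 and with that minimum. A minimum mean of 5 CPM left 50 of the 100 members by construction. TMM-scaled CPM chose 83 of them, TPM 72 and a bound of 0.5 71, and leaving out 1 library 76 to 87. Of the first 10 members, FvH4_3g02010 was not chosen with TPM or a pseudocount of 0.1, and FvH4_5g16850 not with that pseudocount or without H4 replicate 1 or any 1 FT3OE replicate. Also lost were FvH4_1g17370 without H4 replicate 1 or 2, FvH4_7g11260 without H4 replicate 1, FvH4_6g08700 without H4 replicate 1 or RdV replicate 2 or 3, FvH4_1g09180 without FT3OE replicate 1 and FvH4_5g17550 without RdV replicate 2. Each of these losses on leaving out a library came from the bound between RdV and H4 or the minimum of 1 CPM. The FT3OE values still lay above the others, which leaving out a library cannot change. The minimum of 5 CPM left out 7 of the 10. None of the 1008 recomputed log2 changes of the 28 named members reversed. The rule puts every FT3OE value above the others, which left little room for a reversal, so nothing is read from this. Of the 1008, 73 lost the call of the main fit, 14 gained a call and 921 kept their status. Leaving out 1 library ended at least 1 call in 9 of the 26 named members called against H4 and in 5 of the 25 called against RdV.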

Other observations

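Around FvH4_5g13500, the log2 changes of the 5 nearest tested genes on each side in FT3OE against H4 ran from −0.55 to 0.95. The highest was FvH4_5g13480, the first tested gene before it, named after its values were seen, which was 0.95 in FT3OE (edgeR adjusted p = 0.212, past no threshold) and 2.40 in RdV against H4. Around FvH4_3g02010 the same quantity ran from −1.23 in FvH4_3g01990 (edgeR adjusted p = 0.073) to 0.65 in the member FvH4_3g02030. Other neighbours were called by edgeR at an adjusted p under 0.05. Around FvH4_5g13500 they were FvH4_5g13420 (−0.22), FvH4_5g13530 (−0.3) and FvH4_5g13560 (−0.55). Around FvH4_3g02010 they were FvH4_3g01980 (0.5), FvH4_3g01970 (−0.38), FvH4_3g02070 (0.3) and FvH4_3g02030. These calls were picked out after the values were seen.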
